A study of Mus musculus with 6 samples.

Results

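Retnlg-high neutrophils were the cells with 5 or more UMIs (unique molecular identifiers, each counting 1 captured transcript) of Retnlg in single-cell RNA sequencing of mouse heart cells other than cardiomyocytes. A cell also needed at least 1 UMI of Csf3r, at least 1% of its UMIs from S100a8 and S100a9 together, no UMI of Fcgr1, Adgre1, Col1a2, Cdh5 or Siglecf, and fewer than 5 UMIs over Ifit1, Ifit2, Ifit3 and Rsad2. The cells were thus chosen by measured levels of these 13 genes, which are no finding here. The rule was met by 1447 of 30014 cells kept with at least 1000 UMIs, at least 200 genes and at most 20% mitochondrial UMIs, of 34940 deposited cells. All came from the ventricles of male mice aged 8 to 12 weeks, digested with thermolysin and papain and sorted as live by Calcein-AM and DAPI. Wild-type mice (WT, C57BL/6JRj) and Trpm4 knockout mice (KO, B6.Cg-Trpm4tm1.2-PG) were sampled 24 h after a sham operation, or 24 h or 72 h after the left anterior descending artery had been tied off (ligation). Each of these 6 groups is 1 library of 4 pooled mice, so single mice cannot be compared, no test was made, and every interval given is a 95% interval for counting error only. Genotype, strain source and library cannot be told apart.

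Neutrophils are short-lived granulocytes that leave the bone marrow with their granule proteins already made and are among the first blood cells to enter injured heart muscle. Retnlg encodes resistin-like gamma, a secreted protein that marks mature neutrophils of blood and marrow, and S100a8 and S100a9 encode the subunits of calprotectin, the main protein of the neutrophil cytosol. Csf3r encodes the receptor for granulocyte colony-stimulating factor. In tissue, neutrophils are known to switch on chemokine, survival and stress genes and to lose part of the blood programme. How recently a cell had arrived was not measured, and cells in vessels cannot be told apart from cells in muscle, so the cells are called by the rule.

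WT sham held 92 Retnlg-high cells and KO sham 71. At 24 h after ligation there were 377 in WT and 836 in KO, and at 72 h 44 in WT and 27 in KO. The cells had a median of 2185 to 3962 UMIs by library, highest in WT at 24 h after ligation and lowest in KO at 72 h. Calprotectin transcripts made up a median of 11.9% to 23.8% of a cell's UMIs. Near the threshold, 111 cells had exactly 5 Retnlg UMIs and 149 otherwise equal cells had 4. These 2 sets had a median of 2649 and 2744 UMIs, with 11.5% and 12.7% calprotectin UMIs. The 15 pairs of libraries shared 3 to 14 cell barcodes each, and 15 Retnlg-high cells carried a barcode found in another library.

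Of the 7 markers behind the name, Cd177, Wfdc21 and Lrg1 were not used in the rule. Wfdc21, a secreted antiprotease-like protein of neutrophils, stood at 2770, 4577, 4252 and 5900 CPM in WT sham, KO sham, WT ligation 24 h and KO ligation 24 h, where CPM is the UMIs of a gene over the summed UMIs of these cells in the library, scaled alike in all libraries. It was lower in both 72 h libraries, at 1557 CPM in WT and 1225 CPM in KO. Cd177, a surface protein of a subset of neutrophils, had 532 CPM in WT and 408 CPM in KO at 24 h after ligation, against 67.1 and 190 CPM in sham and 26.5 and 47.1 CPM at 72 h. Lrg1, a glycoprotein of neutrophil granules, varied least, from 805 CPM in WT at 72 h to 1691 CPM in KO at 24 h after ligation. The label's markers were thus all present, with Cd177 at 3 UMIs in each 72 h library. Neutrophils of the same gate with 0 to 4 Retnlg UMIs (Retnlg-low cells) carried them too. At 24 h after ligation these held Cd177 in 55.5% (WT) and 30.8% (KO) of cells, Wfdc21 in 76.8% and 76.6%, and Lrg1 in 68.2% and 71.3%. Retnlg-high cells, which were deeper, held them in 68.4% and 53.0%, 95.5% and 97.6%, and 75.9% and 85.8%. By CPM all 3 were higher in Retnlg-high cells in every library measured, with a median log2 ratio of 0.72 against -0.28 over all genes. None of the 3 was 2-fold higher in every library by CPM. Relative to the median gene of each library, Wfdc21 was 2-fold higher in every library measured (median log2 1.75).

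By mean CPM over the 6 libraries the highest genes were S100a9 and S100a8, followed by Gm42418, Malat1, Tmsb4x, Fth1, Actb, Cxcl2, Il1b, Retnlg, S100a6, Srgn, S100a11, Tyrobp and Ifitm1. Cxcl2, a chemokine for neutrophils, and Il1b, which encodes interleukin-1 beta, thus stood at a mean of 11014 and 10801 CPM, beside 10169 CPM for Retnlg. These are not scaled by transcript length, since only 3' ends were counted.

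Trpm4, the calcium-activated cation channel gene targeted in the KO mice, had 0 UMIs in the Retnlg-high cells of every library. The 3 counts that a count of 0 allows correspond to 1.02 CPM in KO and 1.78 CPM in WT at 24 h after ligation. Over all kept cells Trpm4 had 8.78, 5.48 and 4.24 CPM in WT sham, WT 24 h and WT 72 h, and 6.03, 3.46 and 2.58 CPM in the matching KO libraries. Reads at the transcript's 3' end need not fall in the deleted part, so this neither checks the genotype labels nor gives a level in these cells. The other 12 genes of a calcium entry list were all detected in both 24 h ligation libraries.

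The 250 bases before the RefSeq start are shown for Retnlg, which defines the cells, and for Mmp8 and Ngp, which were the most enriched of the other genes. The letters TTGCNNAA, a form bound by C/EBP factors of the granulocyte lineage, were searched on both strands and are in capitals. They occurred in 9.56% of 32851 RefSeq promoter windows of this length (GRCm38.p6). A match is a description of letters and not a binding site.
Retnlg, chr16:48872358-48872607, plus strand: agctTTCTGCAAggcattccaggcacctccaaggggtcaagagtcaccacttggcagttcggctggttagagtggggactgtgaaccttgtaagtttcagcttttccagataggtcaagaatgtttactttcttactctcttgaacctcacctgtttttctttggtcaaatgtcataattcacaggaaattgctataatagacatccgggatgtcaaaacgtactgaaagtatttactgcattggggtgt
Mmp8, chr9:7558179-7558428, plus strand: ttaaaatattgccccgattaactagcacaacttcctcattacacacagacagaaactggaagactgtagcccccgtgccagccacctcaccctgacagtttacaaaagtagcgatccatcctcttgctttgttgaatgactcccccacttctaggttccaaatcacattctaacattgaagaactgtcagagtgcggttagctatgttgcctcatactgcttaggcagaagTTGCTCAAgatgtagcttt
Ngp, chr9:110419558-110419807, plus strand: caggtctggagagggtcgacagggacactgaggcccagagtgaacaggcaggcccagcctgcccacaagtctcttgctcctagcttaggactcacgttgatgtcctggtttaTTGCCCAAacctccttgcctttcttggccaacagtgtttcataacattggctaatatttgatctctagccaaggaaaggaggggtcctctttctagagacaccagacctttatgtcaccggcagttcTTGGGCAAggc
The first base of the match lay 246 bases before the start in Retnlg and 19 in Mmp8, while Ngp had matches at 138 and 11 bases. Another annotation, GENCODE, starts Ngp at base 110419747, inside the window shown. By that annotation the Ngp match at 11 bases lies within the gene and not before it. Among the 5 genes higher in Retnlg-high than in Retnlg-low cells in every library measured, Mmp8 and Ngp held the letters. None of the 7 genes with a promoter entry among the 10 leading lower genes held them.

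Retnlg-high cells were a larger share of neutrophils at 24 h after ligation than in sham or at 72 h, in both genotypes. Among cells meeting the neutrophil criteria of the rule, before the Siglecf, interferon and Retnlg thresholds, they made up 15.1% in WT sham (92 of 610, exact Clopper-Pearson interval 12.3% to 18.2%) and 14.4% in KO sham (71 of 494, 11.4% to 17.8%). At 24 h after ligation the share was 41.3% in WT (38.1% to 44.6%) and 28.8% in KO (27.1% to 30.5%). It was 8.12% in WT (5.96% to 10.7%) and 10.2% in KO (6.80% to 14.4%) at 72 h. The minimum of 1000 UMIs had left out 2728 cells of KO at 72 h, of which 99 met the neutrophil criteria and 2 were Retnlg-high, against 154, 11 and 0 in WT. Ligation at 24 h thus exceeded sham by 26.3 percentage points in WT (Newcombe interval 21.9 to 30.4) and by 14.4 in KO (10.7 to 17.7).

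At 24 h after ligation the KO share was below the WT share, with a difference of -12.6 points (-16.2 to -8.99). As a share of all kept cells the genotypes did not differ beyond counting error there, at 12.4% in KO and 11.8% in WT (difference 0.64 points, -0.76 to 1.98), since neutrophils were 43.1% of kept cells in KO and 28.5% in WT. The cells of WT were also deeper, with a median of 3962 UMIs against 3121. After thinning every neutrophil to 1000 UMIs, with 2 or more Retnlg UMIs as the threshold, the difference was -8.86 points. The other thresholds stayed at full depth there, so depth was not the only change. In sham (-0.71 points, -4.87 to 3.56) and at 72 h (2.03 points, -2.00 to 6.70) the interval of the difference between genotypes held 0. As a share of kept cells KO was lower at both, by -0.51 points in sham (-0.97 to -0.061) and -0.40 points at 72 h (-0.79 to -0.030).

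**Figure D1:**
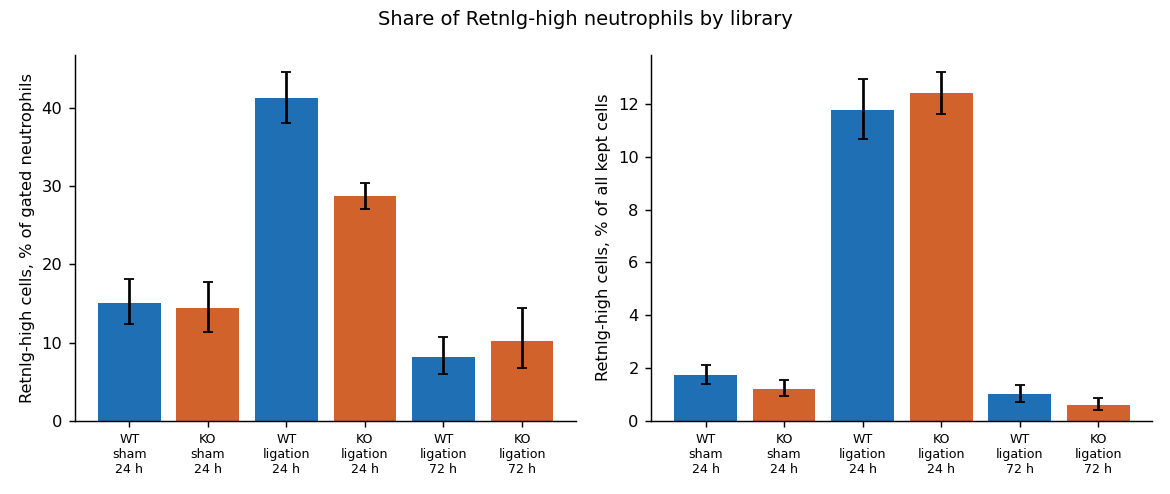
Retnlg-high cells as a percentage of gated neutrophils (left) and of all kept cells (right) in each of the 6 libraries, with exact 95% intervals for counting error; blue is WT and orange is KO. The 24 h ligation libraries stand above the others in both panels. Between them, WT is above KO in the left panel, and the intervals overlap in the right panel.

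The other neutrophils moved differently. Siglecf-positive neutrophils were 9.10% of WT and 8.61% of KO neutrophils at 24 h after ligation and 34.5% and 30.8% at 72 h. Neutrophils past the interferon threshold were 10.7% of WT and 3.38% of KO neutrophils at 72 h. With these 2 kinds left out of the denominator, Retnlg-high cells were 47.4% of WT and 32.7% of KO neutrophils at 24 h after ligation, and 14.8% and 15.4% at 72 h.

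Retnlg was spread widely among neutrophils rather than split into 2 clear sets. In WT sham 61.0% of the Siglecf-negative neutrophils below the interferon threshold had 0 Retnlg UMIs, and in KO sham 66.2%. The share at 0 was 26.9% in WT and 41.0% in KO at 24 h after ligation, and 65.7% and 69.1% at 72 h. Cells with 50 or more Retnlg UMIs made up 13.1% in WT and 7.78% in KO at 24 h after ligation and 1.14% to 3.75% in the other libraries. Inside Retnlg-high cells the median was 13 to 21 Retnlg UMIs per cell by library, and the summed level 8750 CPM (KO 72 h) to 12023 CPM (WT 72 h). Every such cell had 5 or more Retnlg UMIs by the rule, so likeness of this level between libraries is no finding. Endothelial cells, which should lack Retnlg, were taken with 2 or more Cdh5 UMIs and no Csf3r UMI, which can leave out cells with neutrophil RNA. They had 1 or more Retnlg UMIs in 0% to 4.03% of cells by library at a median of 2627 to 5524 UMIs, and only 1 reached 5. S100a8 was found in more of them, from 3.21% in WT at 72 h to 58.2% in KO at 24 h after ligation. Their median calprotectin share was at most 0.041% of UMIs, in KO at 24 h after ligation.

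**Figure D2:**
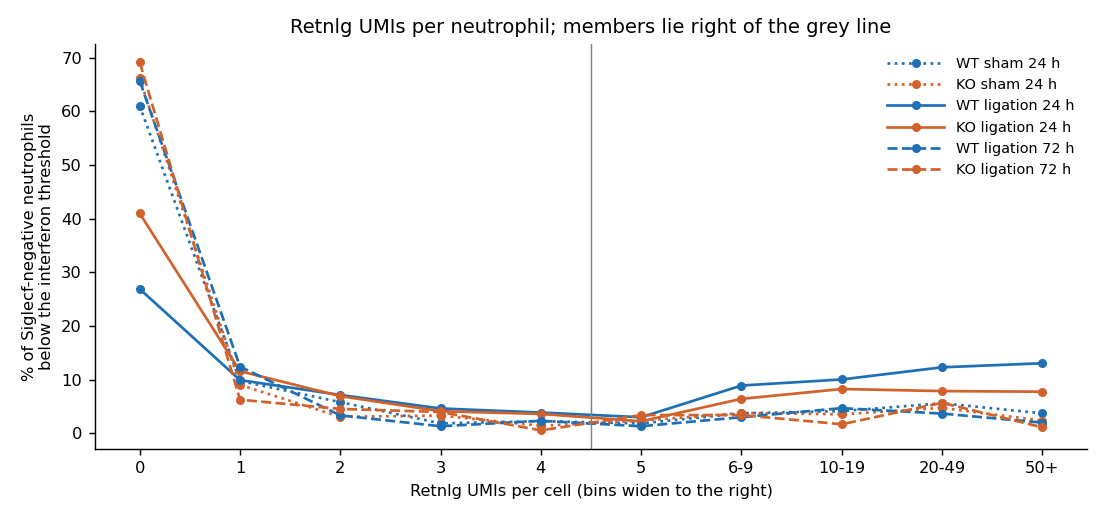
Percentage of Siglecf-negative neutrophils below the interferon threshold by their number of Retnlg UMIs, 1 line per library (blue WT, orange KO; dotted sham, solid 24 h and dashed 72 h after ligation). The curves have no gap at the threshold of 5, and the 24 h ligation libraries hold fewer cells at 0 and more at 50 and above.

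Against Retnlg-low cells, the neutrophils of the same gate with 0 to 4 Retnlg UMIs, the Retnlg-high cells carried more transcripts of Mmp8, Ifitm6 and Wfdc17, and fewer of most genes of the cytokine, survival and apoptosis, and tissue neutrophil lists. Because Retnlg chose the 2 sets, this is a description. Of 2828 genes measured in 3 or more of the 4 sham and 24 h ligation libraries, 5 were at least 2-fold higher in every library measured (0.177%) and 29 at least 2-fold lower (1.03%), or 1.2% in either direction. The median gene stood at a log2 ratio of -0.28, beside the larger calprotectin share of Retnlg-high cells. Relative to the median gene in each library, 19 genes were higher and 8 lower.

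The 5 higher genes were Ngp, Mmp8, Ifitm6, Wfdc17 and Mrgpra2b. Mmp8, neutrophil collagenase of the granules, was 3.46-fold higher in WT sham, 5.73-fold in KO sham, 4.14-fold in WT and 2.46-fold in KO at 24 h after ligation. Ifitm6, a membrane protein of the interferon-induced transmembrane family expressed in myeloid cells, was higher by 2.58-fold (KO 24 h) to 5.66-fold (KO sham). Mrgpra2b, a G protein-coupled receptor gene, was 2.15-fold to 3.05-fold higher in the 3 libraries where it was measured. Mmp8 and Ifitm6 were higher in all 4 libraries, and no interval of either gene reached 1. Ngp, a specific granule protein made in the marrow, was higher by 2.39-fold (WT) and 15.3-fold (KO) at 24 h after ligation, but in KO sham 423 of its 453 UMIs came from 1 cell.

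Further along the same axis, Wfdc17, an antiprotease-like protein of activated myeloid cells, was 2.07-fold (WT 24 h) to 3.86-fold (WT sham) higher. Lcn2, an iron-chelating protein of specific granules, was higher by 1.53-fold to 3.59-fold in these 4 libraries. Chil3, a chitinase-like protein of young neutrophils, went the other way, at 0.164-fold in WT sham, 0.617-fold in KO sham, 0.574-fold in WT and 0.914-fold in KO at 24 h after ligation. Cxcr4, a receptor that is high on aged neutrophils, was lower in all 4, from 0.395-fold in WT sham to 0.763-fold in KO sham. Cxcr2, the main receptor for neutrophil chemokines, lay between 0.987-fold and 1.13-fold, so the 2 sets hardly differed in it.

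Of a list of 22 cytokine and NF-kB feedback genes, 18 were lower in Retnlg-high cells in every library measured and 1 was higher. The median log2 ratio was -0.86, against -0.28 over all genes. How many of all measured genes were lower in every library was not counted, so these counts have no background share, here and for the lists below. Over all genes, 2-fold lower ones outnumbered higher ones in each library. The numbers ran from 147 against 52 in WT at 24 h after ligation to 530 against 68 in WT sham. Relative to the median gene 14 stayed lower in every library, with a median of -0.54. Tnf was at 0.311-fold in WT sham, 0.0776-fold in KO sham, 0.486-fold in WT and 0.451-fold in KO at 24 h after ligation. Ccl3, a chemokine for monocytes and neutrophils, was at 0.198-fold to 0.450-fold. Icam1, the adhesion molecule that binds neutrophil integrins, was at 0.145-fold to 0.403-fold. Il1b was nearer to equal, at 0.735-fold to 0.810-fold, and Cxcl2 ranged from 0.450-fold in KO sham to 0.846-fold in WT at 24 h after ligation.

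All 13 measured genes of a survival and apoptosis list were lower in every library (median log2 -0.80, all genes -0.28). Relative to the median gene only 8 of them were so. They include genes that promote cell death, such as Bax at 0.0998-fold to 0.457-fold, and genes that protect from it, such as Bcl2a1b at 0.167-fold to 0.633-fold and Mcl1 at 0.778-fold to 0.858-fold. Of 16 genes of a list linked to tissue neutrophils 13 were lower in every library (median -1.04), and 12 relative to the median gene. In that list Gngt2 was at 0.216-fold to 0.373-fold and Cstb, a cathepsin inhibitor, at 0.186-fold to 0.478-fold. Immediate early and dissociation genes, which digestion can induce, were lower in 14 of 15 in every library but in only 6 of 15 relative to the median gene. Hypoxia and glycolysis genes had a median of 0.10, with 4 of 16 higher and 1 lower in every library.

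Granule genes were mixed. Of 9 specific granule genes 5 were higher and 1 lower in every library (median log2 0.51), and only Ngp was 2-fold higher in all. Of 6 gelatinase granule genes 3 were higher and 1 lower (median 0.22), and only Mmp8 was 2-fold higher in all. Relative to the median gene 6 of 9 and 6 of 6 were higher in every library and none lower.

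The antigen presentation genes H2-Ab1 and Cd74, which mark dendritic cells and macrophages, were also lower. H2-Ab1 was at 0.0665-fold in KO sham (0.00795 to 0.246), 0.257-fold in WT and 0.180-fold in KO at 24 h after ligation, from 2, 13 and 42 UMIs in the Retnlg-high cells. The part of other cells or of free RNA in this difference was not tested.

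**Figure D3:**
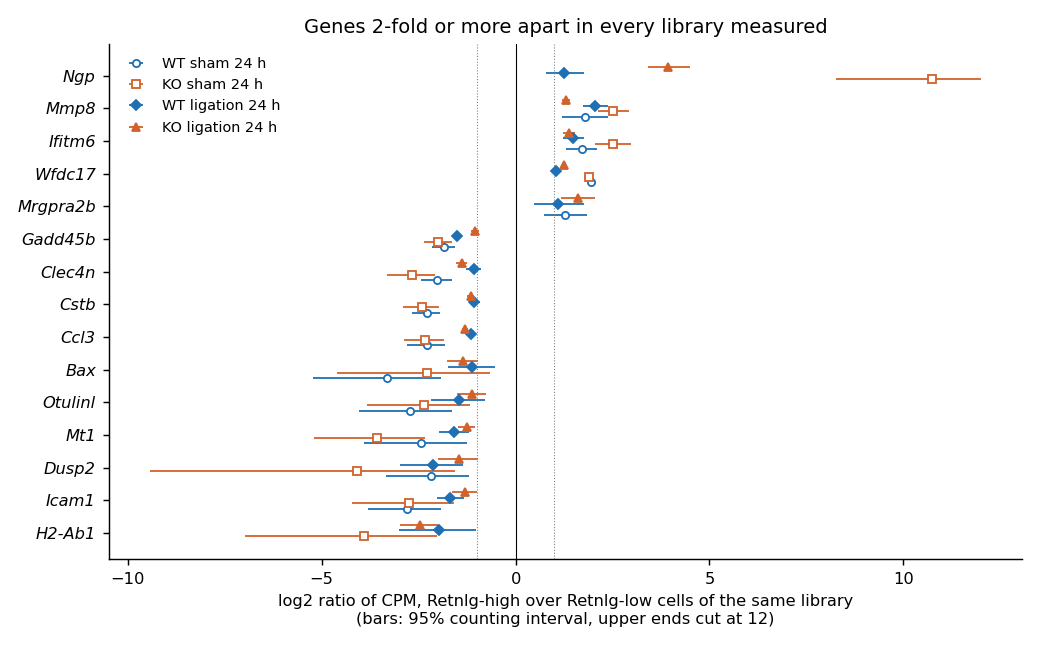
Log2 ratio of CPM between Retnlg-high and Retnlg-low neutrophils of the same library for the 5 genes that were 2-fold higher and the 10 leading genes that were 2-fold lower in every library measured; symbols are libraries (open sham, filled 24 h after ligation, blue WT, orange KO) and bars 95% counting intervals. Ngp in KO sham lies far right of the other libraries, while the other higher genes lie within a narrower range.

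Retnlg-high cells also differed among themselves in some of these genes. They were ordered in each library by the share of Retnlg among their UMIs and split into 3 equal bins, and the upper bin was set against the lower bin, which is again a description because Retnlg set the order. The genes of this comparison were picked after their values were seen. Over all measured genes, 17 were 2-fold higher and 130 lower in the upper bin in WT at 24 h after ligation, of 2328. In KO there were 23 and 88 of 3244, and in WT sham 8 and 42 of 455. Lower genes were the more numerous in every library but KO at 72 h (16 higher and 5 lower of 107). Whether the genes below go beyond this general shift was not tested. The median UMI count was 2109 to 3809 in the lower bin and 2185 to 4548.5 in the upper bin by library, and calprotectin UMIs were a larger share in the upper bin of all 6. Mmp8 was 5.72-fold higher in the upper bin in KO sham, 3.34-fold in WT and 2.35-fold in KO at 24 h after ligation, the 3 libraries where it had 50 UMIs. Wfdc21 was higher in the upper bin in all 5 libraries measured, from 1.46-fold to 4.99-fold. Cxcr4 was lower there in all 4 measured, from 0.323-fold in WT sham to 0.753-fold in KO sham, where the interval (0.430 to 1.32) held 1. Cxcl2 was lower in all 6 libraries, from 0.281-fold in WT 72 h to 0.900-fold in WT 24 h. Chil3 did not follow the order, at 0.275-fold in KO sham and 1.03-fold in KO at 24 h after ligation.

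Against Siglecf-positive neutrophils, a state seen in injured hearts and tumours, fewer genes stood apart. Siglecf-positive cells had no Retnlg limit. At 24 h after ligation 30 of 83 in WT and 76 of 250 in KO met every other part of the rule, with 5 or more Retnlg UMIs. In sham 11 of 120 in WT and 7 of 64 in KO did. The 2 sets thus overlapped in Retnlg. Of 1575 genes measured in 3 or more libraries, 3 were 2-fold higher in every library (0.19%) and 6 lower (0.381%), or 0.571% in either direction. The higher ones were Ngp, Mgst1 and Nrgn, the last a gene abundant in platelets. Mgst1, a microsomal glutathione transferase, was 9.14-fold higher in WT sham, 3.82-fold in KO sham, 2.41-fold in WT and 2.26-fold in KO at 24 h after ligation. The lower genes were Gngt2, Ptgs1, Isyna1, Cd300c2, Acsl1 and Cd101. Ptgs1, which encodes cyclooxygenase 1, was at 0.297-fold to 0.461-fold, and Cd101, a surface protein of mature neutrophils, at 0.429-fold to 0.478-fold. Of 13 tissue neutrophil genes 11 were lower in every library (median log2 -0.85, all genes -0.22), while 5 of 13 hypoxia and glycolysis genes were higher and none lower (median 0.35). Retnlg-high and interferon-high cells were not compared, because only KO at 24 h after ligation held 50 of both.

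At 24 h after ligation the Retnlg-high cells carried more transcripts of many cytokine, hypoxia and glycolysis, and survival and apoptosis genes than those of sham hearts, in both genotypes. In WT 598 of 3325 genes were 2-fold or more apart (18%), 480 higher (14.4%) and 118 lower (3.55%). In KO 750 of 4206 were (17.8%), 535 higher (12.7%) and 215 lower (5.11%). With an interval that also leaves out 1, the shares were 15% in WT (11.5% higher, 3.55% lower) and 9.99% in KO (5.87% higher, 4.11% lower). The median gene stood at a log2 ratio of 0.13 in WT and 0.05 in KO. Of 3301 genes measured in both genotypes, 227 were 2-fold apart in the same direction, which is 38.9% of the 583 apart in WT and 43.4% of the 523 apart in KO, and 11 were apart in opposite directions. The 2 comparisons share no library.

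Among cytokine and NF-kB feedback genes 10 of 22 were 2-fold higher in WT and 8 of 22 in KO, none was 2-fold lower, and the median log2 ratios were 0.79 and 0.71. Cxcl3, a chemokine that draws neutrophils through Cxcr2, went from 859 CPM in WT sham to 4728 in WT ligation (5.51-fold, 4.86 to 6.26) and from 256 to 2477 CPM in KO (9.68-fold, 7.41 to 12.9). Ccl4, a chemokine for monocytes and T cells, went from 490 to 2699 CPM in WT and from 535 to 1240 CPM in KO. Il1b was nearly level, at 1.07-fold in WT and 1.04-fold in KO.

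Hypoxia and glycolysis genes were 2-fold higher in 9 of 19 in each genotype, and none was 2-fold lower (median 0.90 in WT and 0.99 in KO). Hilpda, a lipid droplet protein induced by low oxygen, had 87.2 and 18.95 CPM in WT and KO sham and 491 and 288 CPM after ligation. Egln3, an oxygen sensor that is itself induced by hypoxia, was 13.1-fold higher in WT (6.59 to 30.4) and 17.1-fold in KO (4.71 to 142). Hk2, a hexokinase, was 10.8-fold higher in WT and 1.11-fold (0.79 to 1.61) in KO, whose sham cells already held 166 CPM against 30.2 in WT sham. Slc2a3, a glucose transporter of neutrophils, was at 161 and 150 CPM after ligation against 211 and 289 CPM in sham, which is 0.518-fold in KO (0.395 to 0.688) and 0.764-fold in WT, where the interval (0.579 to 1.02) held 1.

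In each genotype 5 survival and apoptosis genes were 2-fold higher, of 10 measured in WT (median 0.95) and 13 in KO (median 0.61), and none was 2-fold lower. Among them Bcl2a1b, of the antiapoptotic Bcl2a1 cluster, was 2.97-fold higher in WT and 4.75-fold in KO. The Bcl2a1 copies are near-identical, so reads can be split among them. Interferon-induced genes leaned the other way, with a median of -0.22 in WT and -0.67 in KO. In KO 4 of 16 were 2-fold lower and none higher, while in WT 1 of 15 was higher and 1 lower. The rule had removed cells past the interferon threshold, so this covers only cells below it. Cells past it were 1.64% of WT and 2.02% of KO neutrophils in sham, and 3.73% and 3.30% after ligation. No direction for all neutrophils can be read from these ratios. Ifi27l2a, an interferon-induced mitochondrial protein gene, had 604 and 592 CPM in sham and 253 and 358 CPM after ligation.

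**Figure D4:**
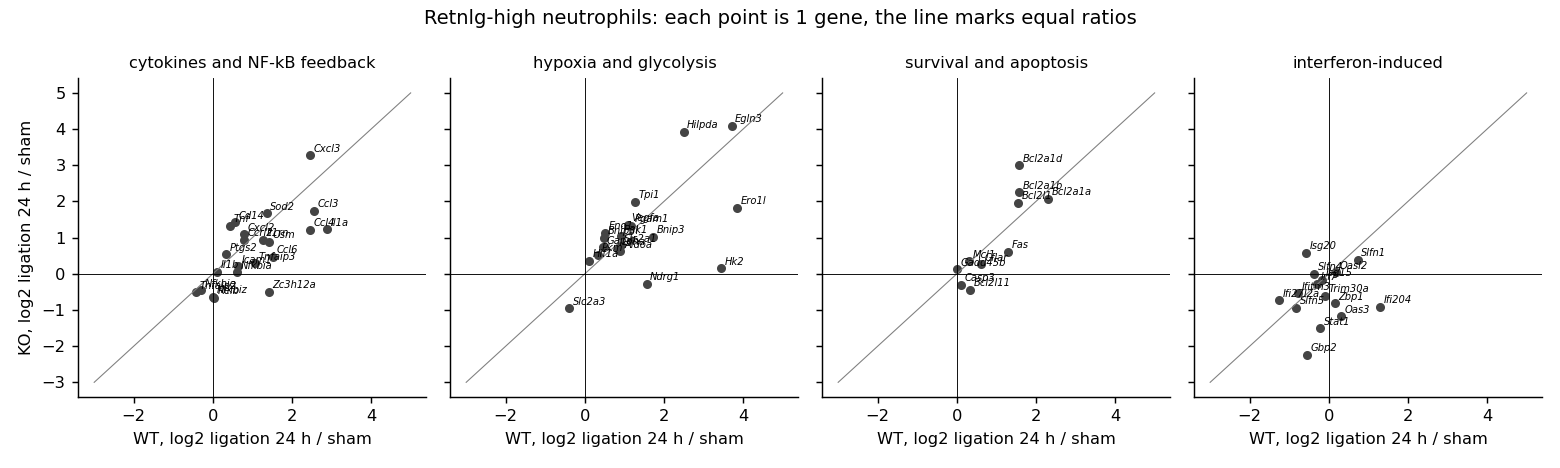
Log2 ratio of ligation 24 h to sham in WT (x axis) and KO (y axis) for the measured genes of 4 lists, in Retnlg-high cells; each point is 1 gene and the grey line marks equal ratios. Cxcl3, Hilpda and Egln3 lie high on both axes, Hk2 lies far right near 0 in KO, and most interferon-induced genes lie below 0 in KO.

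The genes furthest apart among those of at least 100 CPM in 1 of the 2 groups were partly in these lists. In WT they were Cish, Fcgr2b, Enah, Chil3, Fndc3a and Lipg on the higher side and Aldh2, Lyz2, Fabp4, Gm34084, Lsp1 and Mrgpra2b on the lower side. Cish, a feedback inhibitor of cytokine receptor signalling induced by STAT5, had 2 UMIs in WT sham and 357 after ligation (31.6-fold, 8.68 to 262). In KO it had 0 UMIs in sham and 206 after ligation, at least 4.95-fold higher against a floor of 3 counts in the sham library. Fcgr2b, the inhibitory Fc receptor, was 28.2-fold higher in WT (11.0 to 104) and 6.42-fold in KO (2.73 to 19.9). Lyz2, lysozyme of myeloid cells, was lower in both, from 2666 to 469 CPM in WT and from 2080 to 1025 CPM in KO. Fabp4, a lipid carrier abundant in capillary endothelium, was at 0.199-fold in WT, or 0.434-fold without the top cell of each library, and at 0.145-fold or 0.210-fold in KO. The 8 endothelial markers summed to 423 and 469 CPM in WT and KO sham and to 110 and 83.7 CPM after ligation. Their part in the sham levels was not tested.

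In KO the leading higher genes were Ecm1, Egln3, Hilpda, Lipg, Nt5e and Cxcl3 (Ecm1 at 22.8-fold, from 1 UMI in sham, interval 4.06 to 903), and the lower ones Camp, Ltf, Ngp, Fabp4, Itga4 and Dck. Nt5e, the ecto-enzyme that makes adenosine, was 12.0-fold higher in KO (3.31 to 99.8) and 9.13-fold in WT (3.86 to 28.4). Itga4, the alpha 4 integrin chain, was 0.176-fold in KO and 0.428-fold in WT. Camp, Ltf and Ngp, which encode cathelicidin, lactoferrin and neutrophilic granule protein of immature cells, owed their low ratios to 1 cell of KO sham. That cell, with 7597 UMIs against a library median of 2747, held all 187 Camp UMIs, 87 of 88 Ltf UMIs and 423 of 453 Ngp UMIs. With it the specific granule list had 5 of 11 genes 2-fold lower and a median of -0.70 in KO, and without it 0 of 9 and a median of 0.28.

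By 72 h the Retnlg-high cells carried fewer chemokine and hypoxia transcripts than at 24 h. This rests on 44 cells in WT and 27 in KO, under the minimum of 50 cells set for such comparisons, and the KO library was the shallowest of the series, with a median of 2182 UMIs per kept cell. In WT 824 of 3150 genes were 2-fold or more apart from 24 h (26.2%), 308 higher (9.78%) and 516 lower (16.4%). In KO 1150 of 4124 were (27.9%), 726 higher (17.6%) and 424 lower (10.3%). Many rest on few UMIs: with an interval that also leaves out 1, these counts were 536 in WT (17%, with 8.48% higher and 8.54% lower) and 393 in KO (9.53%, with 6.74% higher and 2.79% lower). The median gene was at -0.05 in WT and 0.21 in KO, and relative to it the KO split turned to 478 higher and 583 lower.

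Cytokine and NF-kB feedback genes were 2-fold lower in 11 of 21 in WT, with none higher, and in 6 of 22 in KO, with 1 higher (median log2 -1.04 and -0.57). Cxcl3 had 88.5 CPM in WT and 707 CPM in KO at 72 h, against 4728 and 2477 CPM at 24 h. Ccl4 had 124 and 236 CPM at 72 h. Hypoxia and glycolysis genes were 2-fold lower in 7 of 19 in WT and 5 of 19 in KO, with none higher. Gelatinase granule genes were 2-fold lower in 4 of 8 in each genotype, with none higher. Basp1, a membrane-associated protein, went from 2178 and 1657 CPM to 195 and 157 CPM.

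Chil3 levels spanned a wide range. The gene had 80.5 and 621 CPM in WT and KO sham, 1503 and 4432 CPM at 24 h after ligation, and 8.85 and 94.3 CPM at 72 h, where it rests on 1 and 6 UMIs. Both genotypes were thus highest at 24 h, and KO was above WT at 24 h in sham and after ligation. Lyz2 ran opposite to it, at 469 and 1025 CPM at 24 h and 3291 and 2812 CPM at 72 h after ligation. Ifi27l2a was 8.22-fold higher at 72 h than at 24 h in WT (6.98 to 9.66) and 4.22-fold in KO (3.39 to 5.20), also among cells held below the interferon threshold. The other leading higher genes in WT were Lyz2, Gm5150, Aldh2, St8sia4 and Cd300c2, and the lower ones Chil3, Hilpda, Cxcl3, Gm19951, Rbpj and Ccl4.

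In KO at 72 h the leading higher genes were Igkc, Prdx1, Apoe, H2-Ab1, Cd74 and Sparc, which are markers of other cell types or widely expressed. All 55 Igkc UMIs, an immunoglobulin light chain of B cells, and 42 of 59 Cd74 UMIs came from 1 cell, and 77 of 80 Prdx1 UMIs and 48 of 89 Apoe UMIs from another. Without the top cell of each library Prdx1 was 1.66-fold higher (0.335 to 5.01) and Cd74 3.43-fold (1.97 to 5.60). The leading lower genes were Chil3, Gm19951, Adam19, Ckap4, Basp1 and Ltb4r1. Ltb4r1, the leukotriene B4 receptor that guides neutrophils, had 47.1 CPM in KO and 97.3 CPM in WT at 72 h against 494 and 528 CPM at 24 h.

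**Figure D5:**
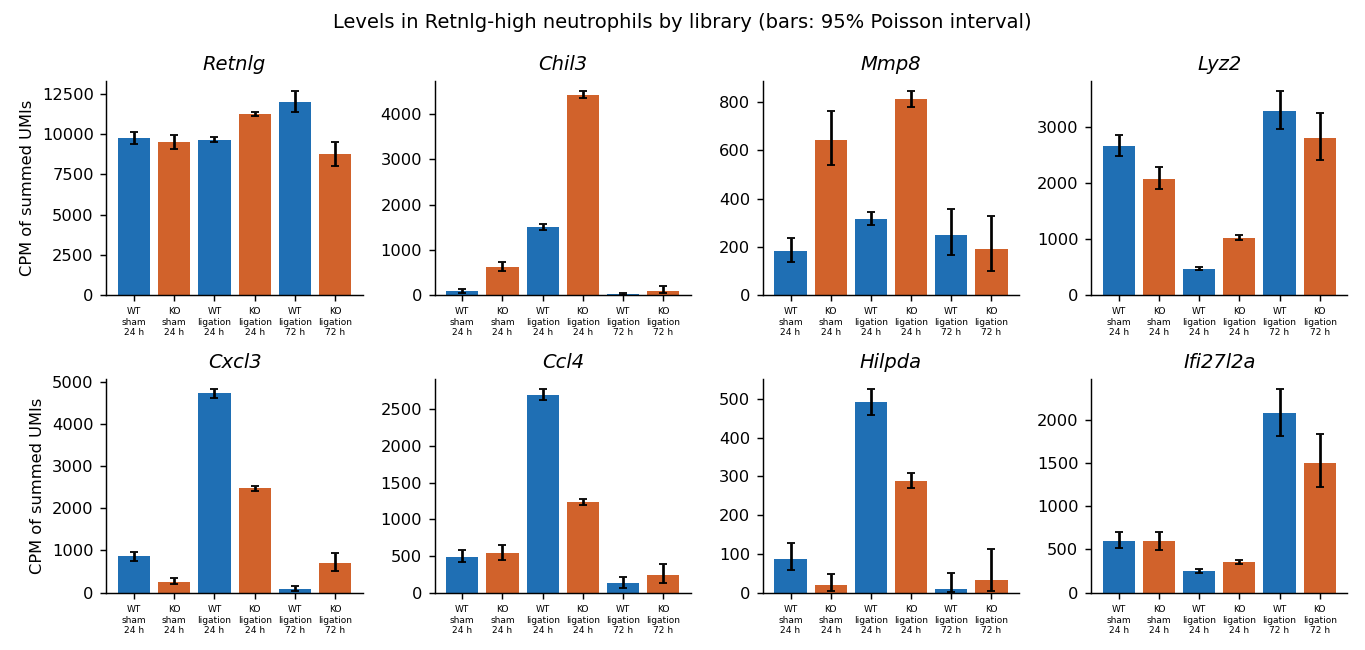
CPM of 8 genes over the summed Retnlg-high cells of each library, with exact 95% Poisson intervals; blue is WT and orange is KO. Retnlg, which chose the cells, is much alike in all 6 libraries, which is no finding. Chil3, Cxcl3, Ccl4 and Hilpda are highest at 24 h after ligation, and Lyz2 and Ifi27l2a are lowest there.

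Between genotypes, KO Retnlg-high cells carried more Chil3 and Mmp8 than WT cells at 24 h, and after ligation fewer cytokine transcripts. In sham 46 of 1155 genes were 2-fold or more apart (3.98%, with 1.9% higher and 2.08% lower in KO). At 24 h after ligation 183 of 4990 were (3.67%, with 1.56% higher and 2.1% lower). At 72 h 43 of 474 were (9.07%, with 6.33% higher and 2.74% lower), and 25 without the 1 cell that held Igkc. An interval that also had to leave out 1 removed none of these genes. With at least 50 counts over these pairs of libraries it could hardly remove any, so this is no check.

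Mmp8 had 644 CPM in KO and 181 CPM in WT sham (3.56-fold, 2.58 to 4.97), and 812 and 315 CPM at 24 h after ligation (2.58-fold, 2.35 to 2.84). This was not particular to Retnlg-high cells. Among Retnlg-low cells Mmp8 was found in 13.2% of KO and 8.76% of WT cells in sham, and in 31.5% and 14.1% after ligation. Chil3 was 7.71-fold higher in KO in sham (4.96 to 12.5; 11.5-fold without the top cell of each library) and 2.95-fold after ligation (2.82 to 3.08). Lcn2 was 1.74-fold and 1.75-fold higher in KO, and Lyz2 2.19-fold higher after ligation (2.02 to 2.37) but 0.780-fold in sham. At 72 h Mmp8 had 189 CPM in KO and 248 in WT, from 12 and 28 UMIs, so no direction could be read there. Ngp, Ltf and Camp led the higher genes of KO sham through 1 cell, with Ngp at 160-fold, or 21.8-fold without the top cell of each library (5.52 to 188). Without those cells Ltf had 1 UMI in KO and 0 in WT and Camp 0 in both, so no fold is given. Lmo4, a transcriptional cofactor, was 3.32-fold higher there (1.93 to 5.92).

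At 24 h after ligation 21 of 22 cytokine and NF-kB feedback genes were lower in KO than in WT, 20 of them with an interval below 1, though only 3 were 2-fold lower. The median log2 ratio was -0.54, against -0.03 over all genes. The share of all genes with an interval below 1 was not counted. In other lists 8 of 12 adhesion and rolling, 10 of 19 hypoxia and glycolysis and 0 of 6 NADPH oxidase genes had such an interval. So had 7 of 14 chemotaxis receptor, 7 of 13 survival and apoptosis, 8 of 16 interferon-induced and 4 of 17 tissue neutrophil genes. Tnf had 59.1 CPM in KO and 132 CPM in WT, Ccl4 1240 and 2699 CPM, and Cxcl3 2477 and 4728 CPM. The KO cells were shallower, and among cells of 2000 to 4000 UMIs in both libraries all 21 measured genes of the cytokine list were lower in KO (median -0.74, all genes -0.11). In sham 9 of 15 were lower (median -0.09), led by Cxcl3 at 0.298-fold (0.218 to 0.401), and at 72 h 7 of 11. Not all of the difference after ligation was particular to Retnlg-high cells. Among Retnlg-low cells thinned to 1000 UMIs at 24 h after ligation, Ccl3 was found in 37.8% of KO and 43.1% of WT cells. Icam1 was found in 7.37% and 12.0% of these cells. The whole list was not compared between genotypes there.

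Besides Tnf, the leading lower genes in KO after ligation were Ahnak, Cish, Enah, Fcgr2b and P4hb. Cish was at 0.332-fold (0.278 to 0.395) and Fcgr2b at 0.401-fold (0.355 to 0.454). Hypoxia and glycolysis genes had a median of -0.14 with 2 of 19 2-fold lower, among them Egln3 at 0.463-fold. Crip1, a LIM domain protein, was 3.06-fold higher in KO but 1.50-fold without the top cell of each library. The remaining leading higher genes were Gm34084 and Ecm1. In sham the lower genes were Nrgn, Ctla2a, Pf4, Etf1, Cxcl3 and Cdkn1a, with Ctla2a at 0.192-fold, or 0.0669-fold without the top cell of each library. Nrgn and Pf4 are abundant in platelets, and the 4 platelet markers summed to 312 CPM in WT sham and 42.6 CPM in KO sham, with 169 and 140 CPM after ligation. Their part in these differences was not tested.

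At 72 h, Igkc, Prdx1, Cd74, Cxcl3 and Apoe were among the leading higher genes in KO and Igsf6, Marcksl1, Gadd45b, B2m, Tsc22d3 and Nfkbiz among the lower ones. Without the top cell of each library Igkc had 0 UMIs in both, and Prdx1 had 3 in KO and 4 in WT (1.36-fold, 0.199 to 8.02), against 23.7-fold with it. Cd74 was then at 6.52-fold, Apoe at 3.35-fold and Marcksl1 at 0.155-fold, against 17.5, 6.08 and 0.360-fold. Cxcl3 had 45 UMIs in 27 KO cells and 10 in 44 WT cells (7.99-fold, 3.97 to 17.8). B2m, the shared subunit of MHC class I, had 581 CPM in KO and 1336 CPM in WT.

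Sums of marker genes of other cell types were at most 586 CPM in the Retnlg-high cells outside KO at 72 h. Fibroblast markers summed to 424 to 586 CPM over all 6 libraries with Col1a2 at 0 by the rule, and endothelial markers to 83.7 to 469 CPM with Cdh5 at 0. At 24 h after ligation most of the fibroblast sum, 488 CPM in WT and 586 CPM in KO, was Gsn. In the upper and lower bins by Retnlg share Gsn had 491 and 473 CPM in WT and 518 and 647 CPM in KO. The 7 eosinophil, basophil and mast cell markers summed to at most 0.59 CPM and were at 0 in 4 libraries. The 12 monocyte and macrophage markers summed to 298 to 540 CPM in those 5 libraries and 1948 CPM in KO at 72 h, with Fcgr1 and Adgre1 at 0 by the rule. B cell markers reached 42.7 CPM in the 5 libraries and 1225 CPM in KO at 72 h, and dendritic cell markers 131 and 1131 CPM. Azurophil granule genes, which are expressed in marrow precursors, summed to at most 18.8 CPM, with Mpo, Elane and Ctsg at 0 in every library. The 16 proliferation genes summed to 892 to 1885 CPM with 4 to 10 of them detected by library. Most of that sum was Hmgb2, a chromatin protein that is also expressed outside the cell cycle, at 694 to 1477 CPM, while Mcm5, Birc5, Cdk1 and Rrm2 were at 0 in every library. Scrublet marked 0 to 20 of these cells per library as doublets, and they were kept.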

How the data were processed

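The deposited gene by cell matrices hold UMI counts. Per the file headers, the authors used Cell Ranger 6.0.0 for them, with mm10 as the build per the submitters' processing notes. Cells needed 1000 UMIs, 200 genes and at most 20% mitochondrial UMIs. Counts of Retnlg-high cells were summed per library and expressed as CPM. A gene was measured with 50 counts over the pair and called at a ratio of 2 or more. A count of 0 was set to 3 counts. Named genes were list members, up to 4 a list, the 6 highest and 6 lowest ratios of each of 7 comparisons, up to 10 each way against other neutrophils among genes 2-fold apart in every library measured (both with 100 CPM in the higher group, without rule, mitochondrial, ribosomal protein and hemoglobin genes), the 15 highest by CPM, and Trpm4. Others named in the text were chosen after their values were seen. Shares have exact Clopper-Pearson intervals, differences of shares Newcombe intervals, levels exact Poisson intervals and ratios exact conditional intervals, all at 95%. With 1 library per group no test was made. The 72 h comparisons fall under the design's minimum of 50 cells and were added. Ratios were tested on simulated data. Doublets were marked with Scrublet (scanpy 1.11.5, rate 0.8% per 1000 cells) and kept, removal being an alternative. Other alternatives changed the Retnlg threshold, depth, count minimum, scaling, and left out single cells. Libraries held 3625 to 7286 deposited cells, with a median of 2182 to 8559 UMIs per kept cell. The cells and gene lists were chosen with earlier results of these data known. Promoters are from RefSeq tables. Python 3.11.15, numpy 2.4.6, scipy 1.17.1 and pandas 2.3.3 were used. Some genes that the naming rule gives are not reported here.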

Additional observations from a re-analysis of the deposited data

Results flagged for a closer look

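Ngp, a specific granule gene, went in opposite directions between genotypes in Retnlg-high cells: the log2 ratio of ligation to sham at 24 h was 2.76 in WT and -4.29 in KO. The difference was not tested, since each group is 1 library. The KO value rests on 1 sham cell that held 423 of 453 Ngp UMIs; without the top cell of each library the KO ratio was 0.671 (0.460 to 1.01).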

How the results depend on the processing

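For 108 ratios of single genes, 923 of 981 values under an alternative kept their direction and stayed within the bound for a move, 54 moved and 4 reversed. The KO minus WT share at 24 h after ligation was -8.86 points after thinning and -8.22 with Retnlg at 0.2% of UMIs. Ligation minus sham in WT was 20.3 points with Retnlg of 10 or more and 19.2 at 0.2%, and 72 h minus 24 h in WT was -25.2, -26.6 at 0.2% and -29.1 thinned. With 20 or 200 counts over the pair, genes 2-fold apart numbered 206 or 4 (KO against WT, sham), 504 or 34 (24 h ligation) and 145 or 2 (72 h). Ligation against sham gave 1141 or 169 in WT and 1232 or 183 in KO, and 72 h against 24 h gave 1433 or 260 in WT and 2540 or 385 in KO. Among cells of 2000 to 4000 UMIs the counts were 20 (KO against WT, 72 h), 301 (ligation, WT), and 448 in WT and 737 in KO (72 h against 24 h). With an interval leaving out 1 they were 420 (ligation, KO), 536 in WT and 393 in KO (72 h against 24 h). Without the Igkc cell KO against WT at 72 h gave 25. Against Retnlg-low cells, higher and lower genes numbered 8 and 49 at 20 counts, 19 and 8 relative to the median gene, and 12 and 14 with totals without rule and mitochondrial genes; at 200 counts 12 were lower. Against Siglecf-positive cells they numbered 5 and 10, 0 and 1 at 200 counts, and 7 and 2 relative to the median gene; the mean over cells gave 5 higher and Retnlg of 10 or more 13 lower. The KO against WT split at 24 h after ligation, 78 higher and 105 lower, became 98 and 85 with those totals. The 72 h against 24 h split became 747 and 686 in WT at 20 counts and 320 and 417 in KO at 2000 to 4000 UMIs, and KO against WT at 72 h 72 and 73 at 20 counts. Log2 ratios that changed sign were Ltf without the top cell (KO against WT sham -1.06, which sets 1 UMI against a floor of 3 for 0 UMIs and shows no direction, and ligation in KO 0.61, from 22 UMIs and 1), Ngp for ligation in KO at 2000 to 4000 UMIs (2.11) and Prdx1 for 72 h in KO with Retnlg of 10 or more (-0.45). Beyond settings that test fewer genes or cells, the cause was not tested. Interferon-high cells gave no value. No paired analysis was possible because each group is 1 library.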
